A study of Mus musculus with 15 samples.

Results

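The 9 genes described here encode the TAM receptors *Axl*, *Mertk* and *Tyro3*, the bridging molecules *Gas6*, *Pros1* and *Mfge8*, the phosphatidylserine receptor *Timd4*, and the engulfment proteins *Elmo1* and *Dock1*. They were taken by gene name from the 38924 genes of the deposited tables, where each name had 1 row. The RNA-seq data cover sorted brain myeloid cells of male wild type C57BL/6J (B6) mice at 12 months of age, with 4 libraries each of CD11b+CD45hi (CD45hi) and CD11b+CD45lo (CD45lo) cells from mice on a control chow diet (CD), and 3 CD45hi and 4 CD45lo libraries from mice switched to a western diet (WD) at 2 months. No group carried a mutation or transgene. The cells came from brains without the olfactory bulb and cerebellum, and were parted by FACS on CD11b and on the surface level of CD45, a leukocyte marker. The comparisons ask how the genes of apoptotic cell clearance differ between CD45hi and CD45lo cells on each diet, and between diets within each sorted population. The study describes its deposited counts as belonging to single animals, and the labels do not say which CD45hi and CD45lo libraries came from the same mouse.

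Dying cells expose phosphatidylserine on their outer membrane, and phagocytes clear them by engulfment, a process called efferocytosis. The receptor tyrosine kinases of the TAM family do not bind phosphatidylserine themselves. They bind the vitamin K-dependent proteins GAS6 and protein S, which bridge the receptor to the dying cell. AXL binds GAS6, whereas MERTK and TYRO3 bind both proteins. In the brain MERTK is known as a receptor of homeostatic microglia, the resident macrophages of the parenchyma, and AXL as a receptor that reactive microglia and other macrophages use. MFG-E8 bridges phosphatidylserine to alpha-v integrins, TIM-4 (encoded by *Timd4*) binds it directly and is known from long-lived resident macrophages, and ELMO1 with DOCK1 forms an exchange factor that activates RAC1 and closes the phagocytic cup.

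The 250 bases upstream of the RefSeq start (build GRCm38.p6, the build of mm10) are given for *Axl*, *Mertk* and *Timd4*, the members whose levels set the CD45hi and CD45lo libraries of CD-fed mice apart most. Each is written 5′ to 3′ on the strand of the gene, in lower case, with the searched motifs in capitals. The *Axl* window lies at chr7:25788734-25788983 on the minus strand, the *Mertk* window at chr2:128698665-128698914 and the *Timd4* window at chr11:46810549-46810798, both on the plus strand.
Axl: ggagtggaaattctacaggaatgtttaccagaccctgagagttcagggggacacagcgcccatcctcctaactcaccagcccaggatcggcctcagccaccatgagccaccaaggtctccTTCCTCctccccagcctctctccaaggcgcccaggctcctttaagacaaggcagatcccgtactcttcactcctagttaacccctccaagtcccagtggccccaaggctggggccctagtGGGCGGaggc
Mertk: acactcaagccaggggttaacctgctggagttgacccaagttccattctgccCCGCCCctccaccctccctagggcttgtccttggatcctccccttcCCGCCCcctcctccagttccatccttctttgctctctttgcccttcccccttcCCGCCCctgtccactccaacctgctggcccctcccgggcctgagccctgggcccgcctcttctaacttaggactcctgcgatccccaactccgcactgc
Timd4: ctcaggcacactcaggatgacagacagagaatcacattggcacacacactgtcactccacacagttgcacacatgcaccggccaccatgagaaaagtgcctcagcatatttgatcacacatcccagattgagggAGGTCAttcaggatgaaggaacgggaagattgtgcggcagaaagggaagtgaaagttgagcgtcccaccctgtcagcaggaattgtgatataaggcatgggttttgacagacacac
The letters searched on both strands were GAGGAA (a PU.1 box, PU.1 being the lineage factor of myeloid cells), TGANTCA (AP-1), GGGCGG (Sp1) and AGGTCA (a nuclear receptor site). In these 3 windows no matches overlapped. Counting backward from the start, the *Axl* window held 1 PU.1 box at position -130, read on the other strand, and 1 Sp1 match at position -10. The *Mertk* window held 3 Sp1 matches, at positions -198, -152 and -99, all read on the other strand. The *Timd4* window held 1 nuclear receptor site at position -116 and had no Sp1 match, while each of the other 8 genes had at least 1 in a window of its own. Among all 32851 RefSeq windows of this length, 23.3% held the PU.1 box, 6.75% the AP-1 motif, 32.7% the Sp1 motif and 14.0% the nuclear receptor site. These matches describe the letters in the windows and are no evidence of binding.

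Each library held 11951412 to 17912272 expected counts in total (median 15100700). Levels are given as cpm, the counts scaled to a common library size after TMM normalization, on which scale 3 counts, taken as the smallest measurable value, were 0.156 to 0.282 cpm. The sort could be seen in the RNA, as *Itgam*, which encodes CD11b, was between 1508 and 2207 cpm in every library, and *Ptprc*, which encodes CD45, was between 778.4 and 1290 cpm in CD45hi and between 356.4 and 487.7 cpm in CD45lo libraries. In a principal component analysis CD CD45hi replicate 4 and WD CD45hi replicate 1 stood apart from the other 5 CD45hi libraries, with scores of -93.0 and 134.7 on the second component against -21.5 to -6.1. Without these 2 libraries 0 of the 40 member values (8 members in 5 comparisons) changed their side of the threshold, and 3 turned their sign, which are given beside the results. The summed level of 8 microglial markers was 5641 to 6886 cpm in CD45hi and 12000 to 15320 cpm in CD45lo libraries. That of 9 border-associated macrophage markers, led by *Mrc1* and *Cd163*, was 884.7 to 2958 cpm in CD45hi and 70.35 to 263.6 cpm in CD45lo libraries. That of 8 neutrophil markers was 693.4 to 3392 cpm against 79.0 to 690 cpm. Both sorted populations thus held marker transcripts of several cell types, and in such bulk samples fewer cells of a type and less RNA per cell cannot be told apart.

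The TAM receptors *Axl* and *Mertk* differed between CD45 levels in opposite directions. *Axl* was 16.7-fold higher in CD45hi than in CD45lo cells of CD-fed mice and 11.6-fold higher in WD-fed mice, whereas *Mertk* was 2.05-fold and 2.29-fold lower. *Tyro3* was at or near the limit of detection in every library. Of the 8 members that passed the filter on low counts, *Axl* and *Mertk* were the 2 called on each diet by edgeR's glmTreat, which tests for a change over 1.5-fold, at an FDR (Benjamini-Hochberg adjusted p) under 0.05. Of all 14967 genes tested, 3.98% were called in CD-fed mice (3.39% higher in CD45hi cells and 0.588% lower) and 5.18% in WD-fed mice (4.01% higher and 1.17% lower).

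*Axl* (chromosome 7 of mm10 from 25757273 to 25788705, minus strand) was measured in CD-fed mice at 261.2, 308.9, 187.7 and 344.7 cpm in CD45hi replicates 1 to 4 and at 17.83, 13.18, 23.05 and 12.03 cpm in CD45lo replicates 1 to 4. The lowest CD45hi library lay far above the highest CD45lo library. The group means were 275.6 ± 67.9 cpm and 16.5 ± 5.02 cpm (SD, n = 4 each), and the log2 fold change between them (log2FC, CD45hi over CD45lo) was 4.06 (SE 0.276, edgeR glmTreat FDR = 1.27e-07). *Axl* in WD-fed mice was at 248.2, 340.8 and 269.1 cpm in CD45hi replicates 1 to 3 and at 17.51, 32.13, 25.04 and 23.56 cpm in CD45lo replicates 1 to 4. Again no CD45hi library overlapped a CD45lo library. The log2FC was 3.54 (SE 0.278, edgeR glmTreat FDR = 1.09e-06). Without the 2 libraries that stood apart it was 3.94 in CD-fed and 3.63 in WD-fed mice.

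*Mertk* (chromosome 2 of mm10 from 128698956 to 128802894, plus strand) was the most abundant TAM receptor transcript. In CD-fed mice it was at 547.3, 552.8, 664.4 and 515.6 cpm in CD45hi replicates 1 to 4 and at 1240, 1101, 1083 and 1248 cpm in CD45lo replicates 1 to 4, so that every CD45hi library was below every CD45lo library. The means were 570 ± 65.0 cpm and 1168 ± 88.4 cpm (SD, n = 4 each), with a log2FC of -1.04 (SE 0.147, edgeR glmTreat FDR = 0.0229). This call was close to the threshold. It was lost without CD45hi replicate 1 or 4 or without CD45lo replicate 1 or 4 of the CD-fed mice, each time with an edgeR glmTreat FDR between 0.0502 and 0.0688, while the log2FC stayed between -1.01 and -0.99. In WD-fed mice *Mertk* was at 389.0, 478.9 and 661.7 cpm in CD45hi replicates 1 to 3 and at 1264, 1273, 1076 and 1067 cpm in CD45lo replicates 1 to 4. The groups did not overlap, and the log2FC was -1.20 (SE 0.163, edgeR glmTreat FDR = 0.00569). Without the 2 libraries that stood apart the log2FC was -0.99 in CD-fed and -1.04 in WD-fed mice, and both remained under the threshold (edgeR glmTreat FDR = 0.0288 and 0.0239). With the replicate number as a block the call in WD-fed mice was lost in the fits within the diet (edgeR glmTreat FDR = 0.105 and 0.106, at log2FC of -1.27 by sample titles and -1.19 by file-name numbers), and the call in CD-fed mice in the fits over 15 libraries (edgeR glmTreat FDR = 0.0625 and 0.0633, at a log2FC of -1.04 in each).

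*Tyro3* (chromosome 2 of mm10 from 119797733 to 119818104, plus strand) had 0 counts in all 7 CD45hi libraries, which allows up to 0.193 to 0.282 cpm in each. In CD45lo cells it had 2, 5, 12 and 1 counts in replicates 1 to 4 of CD-fed mice and 2, 0, 14 and 0 counts in those of WD-fed mice. Its highest level was 0.769 cpm. It did not pass the filter of 1 cpm in 2 libraries and was not tested.

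**Figure D1:**
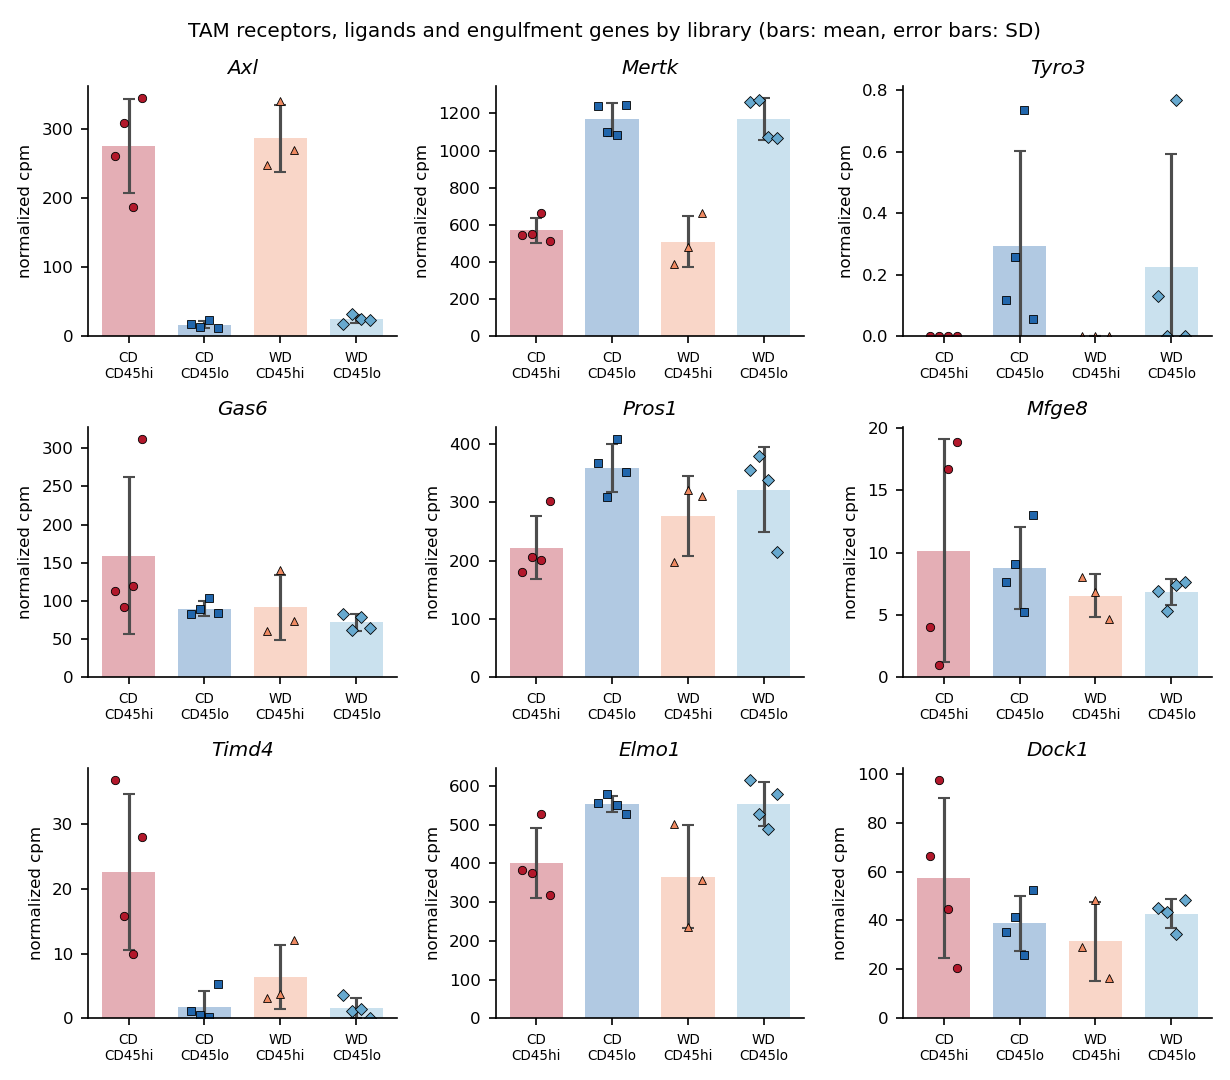
Normalized level (cpm, linear axis from 0) of the 9 genes in the 15 libraries by diet and CD45 level, with points for libraries, bars for means and error bars for SD. *Axl* lay between 187.7 and 344.7 cpm in CD45hi and at most 32.13 cpm in CD45lo libraries, *Mertk* was lower in every CD45hi library than in any CD45lo library, and *Tyro3* stayed under 0.8 cpm throughout.

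Levels of different genes can be compared only per transcript length, for which the TPM of the deposited tables was used within each library. On the TPM scale *Mertk* exceeded *Axl* in all 15 libraries. The ratio of their TPM was 1.51 to 3.41 in CD45hi and 47.1 to 101 in CD45lo libraries of CD-fed mice, and 1.31 to 2.44 and 45.9 to 85.4 in those of WD-fed mice. Of this receptor pair *Mertk* was thus almost alone in CD45lo cells, whereas both were at the same order of magnitude in CD45hi cells. The highest ratio in a CD45hi library was 3.41 and the lowest in a CD45lo library 45.9. In CD45lo cells of CD-fed mice the mean TPM was 654.3 for *Mertk*, 8.71 for *Axl* and 0.163 for *Tyro3*, and in CD45hi cells it was 220 for *Mertk*, 104.3 for *Axl* and 0 for *Tyro3*.

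**Figure D2:**
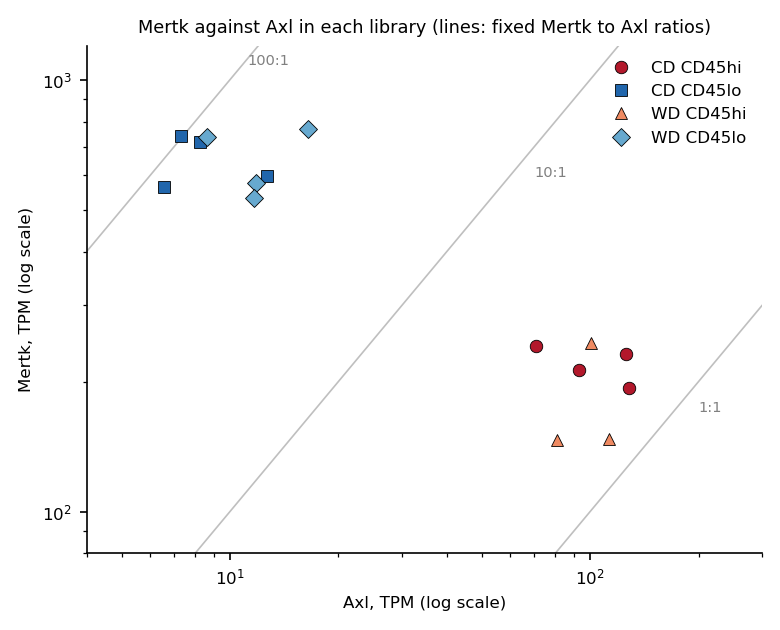
TPM of *Mertk* against TPM of *Axl* (both axes logarithmic), with 1 point per library and grey lines at Mertk to Axl ratios of 1, 10 and 100. The 7 CD45hi libraries lie between ratios of 1.31 and 3.41 and the 8 CD45lo libraries between 45.9 and 101.

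Markers of several cell types also differed between CD45 levels. Those of border-associated macrophages, neutrophils, classical and patrolling monocytes, T and NK cells, B cells and endothelial cells were higher in CD45hi cells, as *Axl* was. In WD-fed mice those of oligodendrocytes were higher in CD45hi cells too. The microglial markers were higher in CD45lo cells, as *Mertk* was. So were the dendritic cell markers on both diets, a list that shares *Siglech* with the microglial one. The astrocyte markers were higher in CD45lo cells of CD-fed mice, at 188.6 to 269.2 against 84.21 to 134.9 cpm, and overlapped in WD-fed mice. Between diets, the median neutrophil marker sum in CD45hi cells was 2921 cpm on the CD and 1013 cpm on the WD, and the mean of *Axl* was 275.6 cpm and 286.1 cpm. The log2FC of the microglial receptor *P2ry12* between CD45hi and CD45lo cells was -1.58 in CD-fed and -1.66 in WD-fed mice, and that of *Mertk* was smaller in size on each diet. The part of these cell types in the receptor differences was not tested.

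Among the bridging molecules *Pros1*, which encodes protein S, was the member with the clearest separation, and *Gas6* and *Mfge8* overlapped between CD45 levels on both diets. None of the 3 was shown to differ by more than 1.5-fold. *Pros1* (chromosome 16 of mm10 from 62854307 to 62929346, plus strand) was at 181.1, 205.7, 201.1 and 302.0 cpm in CD45hi replicates 1 to 4 of CD-fed mice and at 367.9, 308.5, 409.0 and 352.3 cpm in the CD45lo replicates. The groups did not overlap, by a margin of 302.0 against 308.5 cpm. The log2FC of -0.69 (SE 0.210) did not pass (edgeR glmTreat FDR = 0.589), and DESeq2, which has no 1.5-fold threshold in its test, gave an FDR of 0.0276. In WD-fed mice *Pros1* was at 197.1, 320.6 and 310.5 cpm in CD45hi replicates 1 to 3 and at 355.2, 379.5, 339.0 and 214.6 cpm in CD45lo replicates 1 to 4. Here the groups overlapped, through CD45lo replicate 4, and the log2FC was -0.22 (SE 0.227, edgeR glmTreat FDR = 0.975), or -0.03 without the 2 libraries that stood apart. On the TPM scale, which is not TMM normalized, these groups did not overlap, at 107.1 to 132.2 TPM in CD45hi and 144 to 254.9 TPM in CD45lo libraries. The shift between the scales was not particular to *Pros1*. For *Gas6* in WD-fed mice the CD45hi and CD45lo means were 91.5 and 71.9 cpm but 48.7 and 56.3 TPM. The other tested members shifted the same way in these mice. The lack of overlap in TPM is therefore not read as a difference of *Pros1* between CD45 levels. Why the 2 scales differed was not tested.

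*Gas6* (chromosome 8 of mm10 from 13465374 to 13494490, minus strand), the shared ligand of the 3 receptors, was at 113.2, 92.74, 119.2 and 312.3 cpm in CD45hi replicates 1 to 4 and at 82.66, 88.88, 103.9 and 84.26 cpm in the CD45lo replicates of CD-fed mice. CD45hi replicate 4, a library that stood apart, was far above the other 3, whose highest value was 119.2 cpm. The log2FC was 0.83 (SE 0.339, edgeR glmTreat FDR = 0.531) and 0.27 without that replicate. In WD-fed mice *Gas6* was at 60.48, 140.8 and 73.23 cpm in CD45hi replicates 1 to 3 and at 83.27, 61.37, 78.84 and 64.17 cpm in CD45lo replicates 1 to 4. The CD45hi libraries lay on both sides of the CD45lo range, and the log2FC was 0.35 (SE 0.362, edgeR glmTreat FDR = 0.880). On the TPM scale *Pros1* exceeded *Gas6* in every CD45lo library, by 3.00 to 3.65 times in CD-fed and 3.07 to 5.14 times in WD-fed mice. In CD45hi libraries the ratio of their TPM was 0.92 to 1.75 in CD-fed and 1.77 to 3.29 in WD-fed mice.

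*Mfge8* (chromosome 7 of mm10 from 79133768 to 79149060, minus strand) was a low transcript in all groups, with means between 6.54 and 10.2 cpm. It was 0.994 to 18.93 cpm in CD45hi and 5.22 to 13.05 cpm in CD45lo libraries of CD-fed mice, and 4.68 to 8.09 cpm and 5.34 to 7.65 cpm in those of WD-fed mice. Its log2FC between CD45 levels was 0.22 (SE 0.689) in CD-fed and -0.07 (SE 0.747) in WD-fed mice (edgeR glmTreat FDR = 1 on each diet). Without the 2 libraries that stood apart the CD-fed value turned to -0.27. MFG-E8 is also known from astrocytes, whose 6 markers summed to 84.21 to 284.5 cpm over the 15 libraries.

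*Timd4* (chromosome 11 of mm10 from 46810800 to 46844332, plus strand) was 22.6 ± 12.1 cpm (SD, n = 4) in CD45hi and 1.79 ± 2.36 cpm (SD, n = 4) in CD45lo cells of CD-fed mice, with single libraries at 36.76, 15.73, 9.94 and 28.0 cpm and at 1.18, 0.519, 0.184 and 5.28 cpm. Every CD45hi library was above every CD45lo library. With a spread this wide the log2FC of 3.65 (SE 1.12) missed the threshold (edgeR glmTreat FDR = 0.0975). It passed under 8 of the 30 alternatives, among them DESeq2 (FDR = 0.00208), limma-voom (FDR = 0.0307) and leaving out CD CD45lo replicate 4, the library with the highest level among the low ones (edgeR glmTreat FDR = 0.0366, log2FC 5.15). In WD-fed mice *Timd4* was at 3.20, 3.76 and 12.1 cpm in CD45hi replicates 1 to 3 and at 3.61, 1.19, 1.43 and 0 cpm in CD45lo replicates 1 to 4. The groups overlapped, and the log2FC was 2.02 (SE 1.11, edgeR glmTreat FDR = 0.406). TIM-4 is also known from border-associated macrophages, whose summed markers were 2298 to 2480 cpm in CD45hi cells of CD-fed mice and 884.7 to 2958 cpm in those of WD-fed mice. The part of these cells in the level of *Timd4* was not tested.

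*Elmo1* and *Dock1* encode the subunits of the RAC exchange factor, and neither was shown to differ by more than 1.5-fold between CD45 levels. *Elmo1* (chromosome 13 of mm10 from 20090596 to 20608353, plus strand) was among the more abundant members, with CD-fed means of 400.8 ± 89.7 cpm for CD45hi and 553.5 ± 21.7 cpm for CD45lo libraries (SD, n = 4 each) and WD-fed means of 365.3 ± 133.2 cpm (SD, n = 3) and 552.8 ± 56.1 cpm (SD, n = 4). Its log2FC was -0.47 (SE 0.193) in CD-fed mice and -0.60 (SE 0.211) in WD-fed mice, with FDR values of 0.941 and 0.622 from edgeR glmTreat. On each diet 1 CD45hi library reached into the CD45lo range, replicate 3 at 528.5 cpm in CD-fed and replicate 1 at 502.8 cpm in WD-fed mice. Without the 2 libraries that stood apart, of which WD CD45hi replicate 1 was 1, the value in WD-fed mice was -0.90 (edgeR glmTreat FDR = 0.122).

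*Dock1* (chromosome 7 of mm10 from 134670654 to 135173639, plus strand) was at 20.54 to 97.46 cpm in CD45hi and 26.0 to 52.6 cpm in CD45lo libraries of CD-fed mice, and at 16.56 to 48.57 cpm and 34.64 to 48.19 cpm in those of WD-fed mice. The CD45hi libraries spanned the whole CD45lo range on both diets. The log2FC was 0.56 (SE 0.413) in CD-fed and -0.44 (SE 0.450) in WD-fed mice (edgeR glmTreat, FDR of 0.853 and 0.831). *Fam196a*, a gene inside *Dock1* on the opposite strand, was at 0 to 15.1 cpm. The library kit does not mark the strand, so reads from any exon stretch that the pair shares could not be told apart by strand. Whether their exons overlap was not examined, and *Dock1* had no fractional count in any library. On the TPM scale *Dock2*, the haematopoietic paralogue, exceeded *Dock1* in every library, by 5.51 to 25.9 times. *Elmo1* exceeded its paralogue *Elmo2* by 2.21 to 8.87 times.

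The order of the members by level differed between the sorted populations in the places of *Axl* and *Timd4* in CD-fed mice and of *Axl* in WD-fed mice. On the TPM scale the means in CD45lo cells of CD-fed mice ran from *Mertk* (654.3) over *Elmo1* (303.2), *Pros1* (235.5), *Gas6* (70.1), *Dock1* (11.1), *Mfge8* (8.86), *Axl* (8.71) and *Timd4* (1.73) to *Tyro3* (0.163). In CD45hi cells of the same mice they ran from *Mertk* (220) over *Elmo1* (156.9), *Pros1* (112.2), *Axl* (104.3), *Gas6* (87.9), *Timd4* (15.3), *Dock1* (12.2) and *Mfge8* (7.17) to *Tyro3* (0). The libraries of neighbours in this order overlapped from *Mertk* to *Gas6* in CD45hi cells, as did those of *Timd4*, *Dock1* and *Mfge8*. In CD45lo cells those of *Dock1*, *Mfge8* and *Axl* overlapped, as did those of *Timd4* and *Tyro3*, while the other neighbours did not. In WD-fed mice the mean TPM in CD45lo cells was 653.6 for *Mertk*, 303.2 for *Elmo1*, 209.8 for *Pros1*, 56.3 for *Gas6*, 12.2 for *Dock1*, 12.1 for *Axl*, 6.91 for *Mfge8*, 1.51 for *Timd4* and 0.318 for *Tyro3*. In CD45hi cells it was 179.9 for *Mertk*, 139.1 for *Elmo1*, 123.1 for *Pros1*, 98.0 for *Axl*, 48.7 for *Gas6*, 6.11 for *Dock1*, 4.59 for *Mfge8*, 4.17 for *Timd4* and 0 for *Tyro3*. *Axl* was thus below *Gas6* and next to *Mfge8* in CD45lo cells and between *Pros1* and *Gas6* in CD45hi cells on both diets.

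No member was called between diets. In CD45hi cells 0 of 8 members passed an FDR of 0.05 (edgeR glmQLFTest), where 0.254% of all genes did, and 1 member had an unadjusted p under 0.05. That member was *Gas6*, with a log2FC of WD over CD of -0.80 (SE 0.371, edgeR glmQLFTest FDR = 0.273), which became -0.24 without CD CD45hi replicate 4 and -0.02 without both libraries that stood apart. In CD45lo cells 0 of 8 members and 0% of all genes passed (edgeR glmQLFTest), and the member with an unadjusted p under 0.05 was *Axl*, whose mean was 16.5 ± 5.02 cpm on the CD and 24.6 ± 6.01 cpm on the WD (SD, n = 4 each). Its log2FC was 0.57 (SE 0.248, edgeR glmQLFTest FDR = 1), and the 4 WD libraries overlapped the 4 CD libraries. Over all genes 123 had an unadjusted p under 0.05 in CD45lo cells and DESeq2 called 4, none of them a member.

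The members with the largest diet differences by size in CD45hi cells were *Timd4* and *Dock1*. *Timd4* was 22.6 ± 12.1 cpm on the CD (SD, n = 4) and 6.36 ± 4.995 cpm on the WD (SD, n = 3), a log2FC of -1.83 (SE 1.15, edgeR glmQLFTest FDR = 0.432), and its highest WD library, at 12.1 cpm, was above its lowest CD library, at 9.94 cpm. *Dock1* was 57.2 ± 32.7 cpm and 31.5 ± 16.1 cpm, a log2FC of -0.86 (SE 0.455, edgeR glmQLFTest FDR = 0.339). For *Mertk* the diet difference was -0.16 (SE 0.158) in CD45hi and 0.00 (SE 0.146) in CD45lo cells on the log2 scale, and for *Elmo1* it was -0.13 (SE 0.209) and 0.00 (SE 0.193). Without the 2 libraries that stood apart the CD45hi values became -0.05 for *Mertk* and -0.53 for *Elmo1*, and that of *Pros1* went from 0.31 to 0.69 (edgeR glmQLFTest FDR = 0.0860 for *Pros1*). The standard errors of *Timd4* and *Mfge8* (0.756 in CD45hi cells) were so wide that a difference of severalfold between diets could not be seen at this sample size.

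Whether the difference between CD45 levels itself differed between diets was tested as an interaction, which passed for 0 of 8 members (edgeR glmQLFTest) and for 0.00668% of all genes. No member had an unadjusted p under 0.05 in this test. The interaction was -0.52 (SE 0.361, edgeR glmQLFTest FDR = 0.682) for *Axl*, -0.16 (SE 0.215, edgeR glmQLFTest FDR = 0.860) for *Mertk*, -1.63 (SE 1.52, edgeR glmQLFTest FDR = 0.774) for *Timd4* and -1.001 (SE 0.611, edgeR glmQLFTest FDR = 0.624) for *Dock1*, on the log2 scale. Without the 2 libraries that stood apart it turned from -0.48 to 0.30 for *Gas6* and from -0.28 to 0.02 for *Mfge8*.

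Counted by overlap alone, 4 of 8 members had CD45hi and CD45lo libraries of CD-fed mice that did not overlap, *Axl* and *Timd4* higher and *Mertk* and *Pros1* lower in CD45hi cells, against 16.5% of all genes (8.26% higher and 8.22% lower). In WD-fed mice these were 2 of 8, *Axl* and *Mertk*, against 23.4% of all genes (10% higher and 13.4% lower). Between diets they were 0 of 8 in CD45hi cells, against 5.77%, and 0 of 8 in CD45lo cells, against 2.42%.

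**Figure D3:**
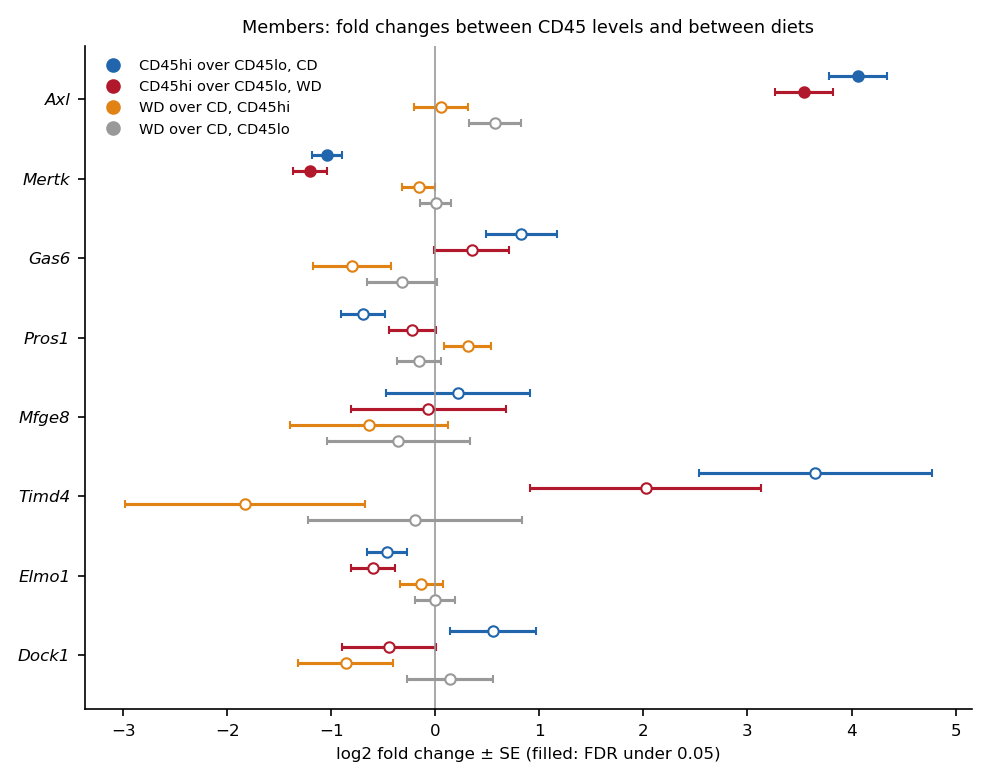
Log2FC with its SE for the 8 tested members, between CD45hi and CD45lo cells on each diet and between WD and CD within each population (edgeR fit over 15 libraries), with filled symbols for an FDR under 0.05. The filled symbols belong to *Axl* (4.06 and 3.54) and *Mertk* (-1.04 and -1.20) and none to a diet comparison.

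The other genes of the pathway were taken from 11 lists of 99 genes in all, of which 95 were tested. In CD-fed mice 11 of the 95 were higher and 2 lower in CD45hi cells, and in WD-fed mice 11 were higher and 3 lower (edgeR glmTreat), against the shares of all genes given above. Those shares, 3.98% in CD-fed and 5.18% in WD-fed mice, also stand beside the counts of the single lists below. No list was tested against them. The median log2FC of the 95 was -0.03 in CD-fed and 0.07 in WD-fed mice, beside 0.04 and 0.00 over all genes, and with genes at or under 3 counts in every library of a group set at their bound it was -0.01 and 0.07. Between diets and in the interaction 0 of the 95 were called (edgeR glmQLFTest). Over the 30 alternatives 10 of the 13 calls in CD-fed mice and 4 of the 14 in WD-fed mice were never lost, the latter being *Cd36*, *Dock5*, *Cybb* and *P2ry12*, and 0 calls turned direction.

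Of the bridging molecules other than the members, 2 were called higher in CD45hi cells on both diets. *Thbs1*, thrombospondin 1, a bridge to CD36, was 135.8 ± 56.0 cpm against 12.9 ± 5.63 cpm in CD-fed mice (log2FC 3.39, SE 0.459, edgeR glmTreat FDR = 0.000294) and 48.4 ± 33.7 cpm against 9.62 ± 2.88 cpm in WD-fed mice (log2FC 2.33, SE 0.461, edgeR glmTreat FDR = 0.0109). *Lgals3*, galectin 3, a lectin known as a ligand of MERTK, had a log2FC of 3.89 in CD-fed and 3.13 in WD-fed mice (edgeR glmTreat, FDR of 0.00449 and 0.0209). In WD-fed mice the call for *Thbs1* was lost under 5 of the 30 alternatives and that for *Lgals3* under 9. For both these included limma-voom, the fit of the compared groups alone and the replicate blocks within the diet. The call for *Thbs1* was also lost without WD CD45hi replicate 3, and that for *Lgals3* without WD CD45hi replicate 3, WD CD45lo replicate 3 or WD CD45lo replicate 4. The complement components *C1qa*, *C1qb* and *C1qc*, which opsonize dying cells, were not called.

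Of the phosphatidylserine and engulfment receptors, *Cd36*, *Cd300lf* and *Cd300lb* were called higher in CD45hi cells on both diets and *Itgb3* lower on the WD. *Cd36*, a scavenger receptor, was 124.6 ± 46.9 cpm in CD45hi and 4.10 ± 1.33 cpm in CD45lo cells of CD-fed mice, and its log2FC was 4.92 (SE 0.513) in CD-fed and 5.24 (SE 0.533) in WD-fed mice (edgeR glmTreat, FDR of 1.61e-05 and 1.19e-05). *Cd300lf* and *Cd300lb*, a pair of phosphatidylserine-binding receptors of myeloid cells, had log2FC values of 4.80 and 4.53 in CD-fed and of 2.89 and 4.12 in WD-fed mice (edgeR glmTreat FDR between 0.001 and 0.0369), and the CD45hi and CD45lo libraries of *Cd300lb* overlapped in WD-fed mice. Their calls in WD-fed mice were lost under 12 of the 30 alternatives for *Cd300lf* and 11 for *Cd300lb*, among them leaving out WD CD45lo replicate 1, 3 or 4, and for *Cd300lf* also CD CD45lo replicate 2 or WD CD45hi replicate 2 or 3, and for *Cd300lb* also WD CD45hi replicate 1. In CD-fed mice the call for *Cd300lb* was lost without CD CD45lo replicate 1 or 2. *Itgb3*, the beta 3 chain of the integrin that binds MFG-E8, was 54.4 ± 12.6 cpm in CD45hi (SD, n = 3) and 151 ± 24.6 cpm in CD45lo cells (SD, n = 4) of WD-fed mice (log2FC -1.47, SE 0.282, edgeR glmTreat FDR = 0.0183). Its CD-fed log2FC was -0.36 (SE 0.250, edgeR glmTreat FDR = 0.983), and the interaction was -1.11 (SE 0.371, edgeR glmQLFTest FDR = 0.365). The call for *Itgb3* was lost under 7 of the 30 alternatives, among them limma-voom and the replicate blocks within the diet. It was also lost without WD CD45hi replicate 1, without WD CD45lo replicate 3 and without both libraries that stood apart. *Trem2*, *Lrp1*, *Havcr2* and *Stab1*, further receptors for lipids or dying cells, were not called, and *Stab1* was closest in CD-fed mice (log2FC 1.00, SE 0.193, edgeR glmTreat FDR = 0.0959).

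In the engulfment module, 1 of the 15 tested genes was called on each diet, *Dock5*, a paralogue of *Dock1*, at 58.6 ± 22.6 cpm in CD45hi and 4.40 ± 2.00 cpm in CD45lo cells of CD-fed mice (log2FC 3.73, SE 0.490, edgeR glmTreat FDR = 0.000196) and at 93.7 ± 19.3 cpm and 3.51 ± 1.88 cpm in WD-fed mice (log2FC 4.74, SE 0.526, edgeR glmTreat FDR = 2.83e-05). Its mean TPM in CD45hi cells was 7.94 in CD-fed and 12.0 in WD-fed mice, against 93.3 and 88.3 for *Dock2*, which was not called. Of 18 genes of phagosome maturation and LC3-associated phagocytosis *Cybb*, the catalytic subunit of the phagocyte NADPH oxidase, was called, with a log2FC of 3.92 (SE 0.359) in CD-fed and 4.30 (SE 0.375) in WD-fed mice (edgeR glmTreat, FDR of 4.92e-06 and 2.71e-06). *Cybb* is also abundant in neutrophils, whose markers were higher in the same libraries, as were those of monocytes and border-associated macrophages. In CD45hi cells the median neutrophil marker sum was 2921 cpm in CD-fed and 1013 cpm in WD-fed mice. The mean of *Cybb* there was 951.5 cpm and 1173 cpm. The part of these cell types in the level of *Cybb* was not tested.

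Of 6 receptors for find-me signals, *Cx3cr1* and *P2ry12*, which sense fractalkine and nucleotides, were called lower in CD45hi cells, with log2FC values of -0.95 and -1.58 in CD-fed and -0.99 and -1.66 in WD-fed mice (edgeR glmTreat FDR between 5.36e-06 and 0.00783). *Gpr132*, a receptor for lysophospholipids, was called higher, with log2FC values of 5.98 and 4.29 (edgeR glmTreat FDR = 0.00291 and 0.0215). Of 7 do-not-engulf signals and their receptors *Cd24a* was called, at 3.28 and 3.91 (edgeR glmTreat FDR = 0.0209 and 0.0081). *Vav3*, an exchange factor downstream of the TAM receptors, was called from a list of 11 shedding and signalling genes, at 4.06 and 4.03 (edgeR glmTreat FDR = 0.0118 and 0.0136). *Pparg*, a nuclear receptor known to act in macrophages after engulfment, was called from a list of 10. It was 4.57 ± 1.37 cpm in CD45hi cells of CD-fed and 13.7 ± 7.53 cpm in those of WD-fed mice, and at or under 0.123 cpm in every CD45lo library of CD-fed and 0.878 cpm in every CD45lo library of WD-fed mice. Leaving out 1 library ended the CD-fed call for *Cd24a* (CD CD45hi replicate 4, or CD CD45lo replicate 1 or 3) and for *Vav3* (CD CD45lo replicate 1), and the WD-fed call for *Gpr132* (WD CD45hi replicate 2, or WD CD45lo replicate 3 or 4), *Vav3* (WD CD45lo replicate 3 or 4) and *Pparg* (WD CD45hi replicate 1, or WD CD45lo replicate 1, 2 or 4). Over all 30 alternatives, replicate blocks included, the CD-fed call was lost under 4 for *Cd24a* and 5 for *Vav3*. The WD-fed call was lost under 8 for *Gpr132*, 7 for *Vav3*, 9 for *Pparg*, 3 for *Cx3cr1* and 1 for *Cd24a*. None of the 3 genes of vitamin K-dependent carboxylation, *Ggcx*, *Vkorc1* and *Vkorc1l1*, which make GAS6 and protein S able to bind phosphatidylserine, was called, and none of the 6 genes of phosphatidylserine exposure was. *Adam10* and *Adam17*, the proteases that shed AXL and MERTK, were not called either.

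**Figure D4:**
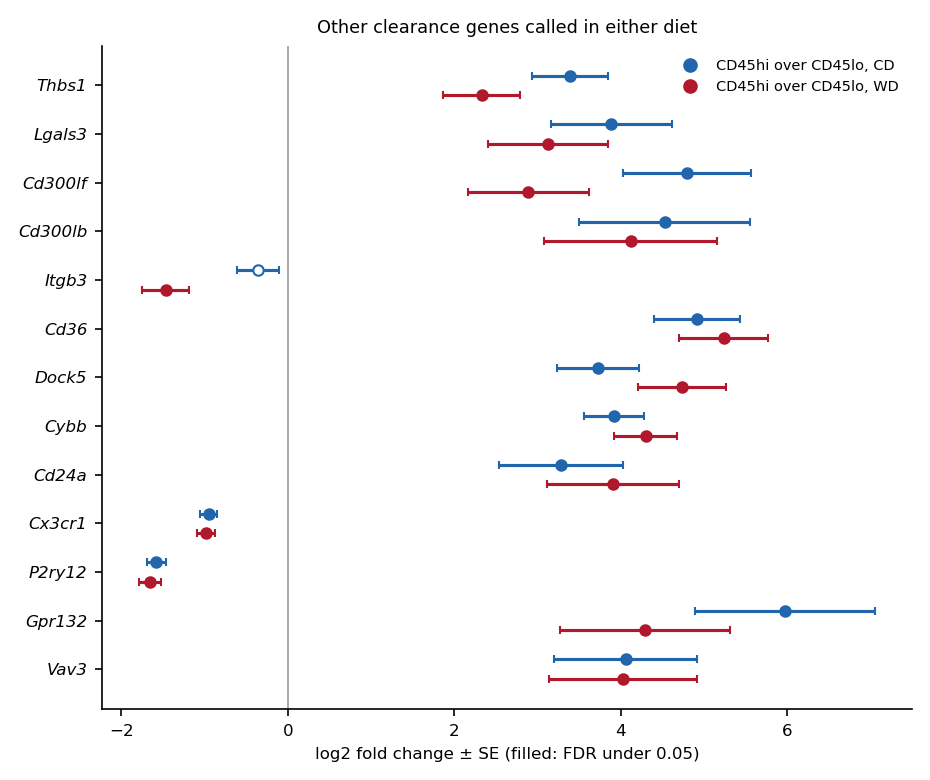
Log2FC with its SE between CD45hi and CD45lo cells on each diet for the other clearance genes called on either diet, with filled symbols for an FDR under 0.05. *Pparg* is left out because it was at or under 3 counts in every CD45lo library of CD-fed mice. The values run from -1.66 for *P2ry12* to 5.98 for *Gpr132*, whose CD45lo mean was 0.442 cpm in CD-fed mice. The open symbol is *Itgb3* in CD-fed mice.

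The gene whose log2 cpm followed each member most closely over the 15 libraries is given as a description, since the libraries share the split by CD45 level. For *Axl* it was *Lilrb4*, an inhibitory receptor of myeloid cells, with a Pearson r of 0.990. After the group means were removed this r was 0.631. For *Mertk* it was *P2ry12*, with an r of 0.981 and of 0.867 after the group means were removed. For *Timd4* it was *Pygl*, the liver form of glycogen phosphorylase, with an r of 0.933 and 0.811. For the other 5 tested members the nearest genes, with r before and after the group means were removed, were *Irak4* for *Gas6* (0.890 and 0.883), *Itm2b* for *Pros1* (0.898 and 0.812), *Clns1a* for *Mfge8* (0.945 and 0.961), *Plcl1* for *Elmo1* (0.954 and 0.937) and *Zfp758* for *Dock1* (0.898 and 0.897).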

How the data were processed

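Poly(A)-selected TruSeq v2 libraries of sorted brain myeloid cells were sequenced as 75 bp paired-end reads on either of 2 Illumina platforms, and the sources used here do not assign libraries to platforms, so a platform batch was not tested. The authors trimmed adapters and bases under Phred 30 and quantified genes with RSEM 1.2.12 on mm10, depositing for each gene and library an expected count, an estimate that is not normalized, and TPM, which the authors' RSEM run scaled by transcript length. The annotation release and the use of strand in counting are not given in the sources used here. No member had a fractional count in any library.

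Groups come from the sample titles. No 2 replicates had identical counts (chi-square per degree of freedom 22.0 to 143.2 over 21 pairs). Expected counts were rounded, and the 14967 of 38924 genes that reached 1 cpm in 2 or more of the 15 libraries were TMM normalized and fitted together in 4 groups with edgeR 4.0.16 (R 4.3.3, earlier quasi-likelihood form, as the study did). CD45 levels were compared with glmTreat at 1.5-fold, and diets and the interaction with glmQLFTest. The SE of a log2FC is its size over the square root of F. Genes with an FDR under 0.05 were called. The computation was tested on simulated counts. The alternatives, each changing 1 choice except that the blocks within a diet also left out the libraries of the other diet, were another test (glmTreat, or glmQLFTest and a fold limit), DESeq2 1.42.0, limma-voom 3.58.1, other size factors, filters, dispersions and rounding, fits of the compared groups alone, replicate blocks and leaving out each library. The blocks over all 15 libraries and the fit without the 2 libraries that stood apart were chosen after seeing the data.

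Over all genes, deviations of same-numbered CD45hi and CD45lo libraries from their group means were almost uncorrelated (r from -0.0217 to 0.0695 over 7 pairs by title, -0.000466 to 0.0695 by the numbers in the file names). On this ground no block entered the main fit, but pairing was not excluded. In CD-fed mice the summed neutrophil markers of replicates 1 to 4 had the same order in CD45hi (2734, 3392, 1119 and 3108 cpm) and CD45lo libraries (288.6, 690, 97.48 and 456.2 cpm). In WD-fed mice the order was the same by file-name numbers and differed by titles. The members and lists were chosen with earlier results of these data known. The genes named are the members, the called genes of each pathway list (up to 4 a list), the nearest gene of each member, marker lists and the sorting markers. Other list genes named as not called were chosen after their values were seen. Of the list genes, 3 were matched by identifier (*Adgrb1*, *Rubcn* and *Chil3*), and *Cd47* has 2 rows, of which the first was used. Gene coordinates are those of GENCODE M21 on mm10, and promoter windows those of RefSeq, which held all 9 members.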

Additional observations from a re-analysis of the deposited data

Results flagged for a closer look

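Over the members, 26 groups of 4 libraries with a level above 0 were examined for a single library far from the other 3, and 2 were flagged, where chance alone flags about 1 in 20 groups. *Gas6* in CD45hi cells of CD-fed mice was 312.3 cpm in replicate 4, against 92.74 to 119.2 cpm in the other 3 libraries. This library also stood apart in the principal component analysis, and its level sets the log2FC of *Gas6* given above. *Tyro3* in CD45lo cells of WD-fed mice was 0.7686 cpm, or 14 counts, in replicate 3, against 0 to 0.1311 cpm in the others. No member differed between diets in its CD45 difference by the interaction test.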

How the results depend on the processing

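For the 8 tested members 0 calls changed direction. Over the alternatives, 225 of 240 refitted member values kept their side of the threshold between CD45 levels in CD-fed mice and 238 of 240 in WD-fed mice, and all kept theirs between diets and in the interaction. The exceptions were *Mertk*, *Timd4* and *Pros1*. For the other pathway genes called, 11 of 390 refitted values in CD-fed and 72 of 420 in WD-fed mice lost the call, and 0 turned direction. DESeq2 called 4 members in CD-fed mice (2 higher, 2 lower), and leaving out 1 library gave 1 to 3. The counts over all genes moved more. Between CD45 levels glmQLFTest with a later fold limit called 1162 genes in CD-fed and 1335 in WD-fed mice, and DESeq2 1794 and 2296. Leaving out 1 library gave 513 (without WD CD45lo replicate 3) to 920 in WD-fed mice. The 38 genes called between diets in CD45hi cells became 1 under glmTreat, 1030 under DESeq2, 66 when 1 cpm was required in 3 or more libraries, 252 with the edgeR 4 form, 0 with only the compared libraries, 290 without the 2 libraries that stood apart, and 1 (without WD CD45lo replicate 2) to 286 (without WD CD45hi replicate 2) with 1 library left out. In CD45lo cells DESeq2 called 4. The 1 interaction call became 188 under DESeq2, 0 under limma-voom, 0 under the edgeR 4 form, 3 without the 2 libraries that stood apart and 0 to 6 with 1 library left out. The cause of these shifts was not tested.

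The replicate block, whose numbers were not shown to pair libraries, left 175 genes by sample titles and 214 by file-name numbers in WD-fed mice when fitted within the diet (398 and 353 when fitted over all 15 libraries), and 1 of the 2 members in the fits within the diet, as *Mertk* was no longer called (edgeR glmTreat FDR = 0.105 and 0.106, with the log2FC at -1.27 and -1.19). Over all 15 libraries it was called in WD-fed mice, and in CD-fed mice it was not (FDR = 0.0625 and 0.0633), which left 1 member by file-name numbers. By sample titles *Timd4* was called there (edgeR glmTreat FDR = 0.0226). The depth limits statements on *Tyro3*, whose counts were at most 14.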
